A study of Mus musculus with 653 samples.

Results

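The membrane of the red cell rests on a small set of proteins, and 8 of their genes were followed in embryonic liver: *Ermap*, *Rhag*, *Kel*, *Ank1*, *Sptb*, *Epb41*, *Epb42* and *Slc4a1*. The 8 genes were taken by name from a count table of 54195 genes, and they were read in the 25.4% of 653 cells that held more than 10 reads of *Klf1*, the transcription factor of the erythroid lineage. These *Klf1*-positive cells were 36 of 414 at E10.5 (8.70%, exact binomial 95% interval 6.17 to 11.8) and 130 of 239 at E13.5 (54.4%, 47.9 to 60.8). Males carrying Lgr5-EGFP-IRES-creERT2, a GFP reporter in the *Lgr5* locus, on C57BL/6 were mated with MF1 females, and livers of their embryos were dissociated at both stages. The sort took Liv2+ cells, Liv2 being a surface antigen of hepatoblasts, and gated out CD31+ endothelium and CD45+ leukocytes. It took either all such cells, called bulk, or those that were also Lgr5-GFP+. Each sample was 1 cell sequenced by Smart-seq2, which amplifies the cDNA of a single cell without molecular identifiers. The methods of the study speak of biological replicates and of several sorts, but no label ties a cell to an animal or to one of those sorts. Each stage was therefore treated as 1 sample, its cells were not counted as replicates, and no test between stages was made.

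In the mature red cell, spectrin forms a net under the membrane, and ankyrin and the protein encoded by *Epb42* tie this net to *Slc4a1*, the chloride and bicarbonate exchanger. Further proteins sit in the same membrane, some of them as blood group antigens. In the mouse embryo, a first wave of red cells arises in the yolk sac and carries embryonic globins, and the fetal liver then becomes the main site where red cells with adult globins are made.

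The samples are labelled as liver hepatoblast cells, and the *Klf1*-positive cells did not look like them. More than 10 reads on at least 3 of 8 erythroid markers were found in 86.1% of them at E10.5 and 93.8% at E13.5, and on at least 3 of 9 hepatoblast markers in 2 cells. All but 5 came from the bulk sort, in which they made up 17.2% of cells at E10.5 and 79.2% at E13.5. Reads per cell were alike over the globin levels (medians of 1077000 to 1132000), and the 5 library pools named in the labels served as technical batches. Cells in pools 1 and 2 had fewer genes with a read (medians 4585 and 4910) than those in pools 3, 4 and 5 (6229 to 6550), and in pool 1 cells without *Klf1* held a median of 275 RPM of globin, against 6.80 to 30.5 RPM in the other pools.

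Globin, which builds up as a red cell matures, was used to order the cells. RPM are reads of a gene per 1000000 reads on all genes, and the globin level of a cell is the RPM of 7 globin genes added up. The cells were ranked by it over both stages and divided into 4 bins of 41, 42, 41 and 42 cells. The lowest bin ran from 3.39 to 107.6 RPM, the second from 110.6 to 538, the third from 557 to 2544 and the highest from 2633 to 118800. E10.5 gave 9, 11, 12 and 4 of these cells in that order. The lowest bin held 0 cells of pool 1, where the globin background was high. A gene was called present in a cell with more than 10 reads.

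The positions of the genes are given on GRCm38. *Ermap* (ENSMUSG00000028644, chr4:119175457-119190011) and *Epb41* (ENSMUSG00000028906, chr4:131923413-132075321) share chromosome 4. *Rhag* (ENSMUSG00000023926) lies at chr17:40811126-40840754, *Kel* (ENSMUSG00000029866) at chr6:41686330-41704339 and *Ank1* (ENSMUSG00000031543) at chr8:22974844-23150497. *Sptb* (ENSMUSG00000021061) lies at chr12:76580488-76710547, *Epb42* (ENSMUSG00000023216) at chr2:121017891-121037072 and *Slc4a1* (ENSMUSG00000006574) at chr11:102348824-102366203. *Rhag* and *Ank1* are read from the plus strand and the others from the minus strand.

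Promoter sequence was read for 6 members. *Ank1* and *Slc4a1* had no entry. The 250 bases before the RefSeq start (build GRCm38.p6, printed 5′ to 3′ on the strand of the gene) are shown for *Ermap*, *Rhag* and *Kel*, which were present in many cells of the lowest globin bin, and for *Epb42*, which was nearly absent there. Capitals mark the letters AGATAA or AGATAG as well as TGATAA or TGATAG, which the GATA factors are known to bind, and CACCC, the core of the sites bound by *Klf1* and its relatives. Both strands were searched, so a match on the other strand is printed as its reverse complement. No marked stretch overlapped another.
Ermap, chr4:119189996-119190245, minus strand: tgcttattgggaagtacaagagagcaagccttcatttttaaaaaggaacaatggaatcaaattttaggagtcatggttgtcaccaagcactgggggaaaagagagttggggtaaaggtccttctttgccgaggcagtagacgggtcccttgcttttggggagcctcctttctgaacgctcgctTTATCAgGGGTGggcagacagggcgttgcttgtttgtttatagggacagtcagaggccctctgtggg
Rhag, chr17:40810899-40811148, plus strand: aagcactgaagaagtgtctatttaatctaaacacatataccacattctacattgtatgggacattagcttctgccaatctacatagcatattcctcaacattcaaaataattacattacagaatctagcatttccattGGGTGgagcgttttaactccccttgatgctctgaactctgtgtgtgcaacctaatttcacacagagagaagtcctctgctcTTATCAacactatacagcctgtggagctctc
Kel, chr6:41704326-41704575, minus strand: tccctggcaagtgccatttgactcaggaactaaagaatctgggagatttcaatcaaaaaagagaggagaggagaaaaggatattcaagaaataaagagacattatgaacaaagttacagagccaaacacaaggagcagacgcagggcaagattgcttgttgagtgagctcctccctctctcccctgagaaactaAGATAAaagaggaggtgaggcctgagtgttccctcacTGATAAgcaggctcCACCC
Epb42, chr2:121036878-121037127, minus strand: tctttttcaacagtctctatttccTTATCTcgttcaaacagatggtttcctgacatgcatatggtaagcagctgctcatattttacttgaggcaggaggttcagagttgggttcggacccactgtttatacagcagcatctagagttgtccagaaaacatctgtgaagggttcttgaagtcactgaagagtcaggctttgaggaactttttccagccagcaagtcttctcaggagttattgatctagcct

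The windows of *Ermap*, *Rhag* and *Kel* each held letters of both kinds, as did 11.8% of all 32851 RefSeq windows of that length. The GATA letters began 67 bases before the start in *Ermap*, 31 in *Rhag* and 56 and 19 in *Kel*. The single GATA match of *Epb42* lay 226 bases before its start, without a CACCC. *Sptb* and *Epb41*, which were also present in many cells of the lowest bin, are not printed. *Sptb* had CACCC alone. Of 3 starts of *Epb41* only the outermost had a GATA match, and none had a CACCC. Over all windows, 26.5% held GATA letters and 52% held CACCC. A match of letters is no bound site, and no binding was measured here.

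Of the 8 genes, 6 were already present in many of the cells with the least globin, and *Epb42* and *Slc4a1* were not. In the lowest bin, *Ermap*, which encodes a membrane protein of erythroblasts that carries a blood group, was present in 31 of 41 cells (75.6%, 59.7 to 87.6). *Epb41*, whose protein joins spectrin to actin, was present in 28 of 41 (68.3%, 51.9 to 81.9), and *Ank1*, the ankyrin of the red cell, in 22 (53.7%, 37.4 to 69.3). These 3 were the members present in over 50% of the lowest bin. *Rhag*, the glycoprotein that accompanies the Rh antigen, and *Kel*, a membrane metalloprotease and blood group antigen, were each present in 18 of 41 cells (43.9%, 28.5 to 60.3). *Sptb*, the beta spectrin of the red cell, was present in 15 (36.6%, 22.1 to 53.1). The interval of *Ermap* lay above that of *Sptb*, and all other pairs among these 6 overlapped. All genes were read in the same 41 cells and the intervals cover counting error only, so they do not rank these 6. The shares also differed by pool. *Sptb* was present in 15 of 33 cells of this bin in pools 3, 4 and 5 and in 0 of 8 in pools 1 and 2. *Ermap* was present in 26 and 5 of the same cells. *Epb42* was present in 1 cell (2.44%, 0.0617 to 12.9) and *Slc4a1* in 0 of 41, which allows up to 8.60% by the exact interval. The upper bounds of both lie below the lower bound of each of the other 6. The lowest bin included 4 E10.5 cells with more than 10 reads on at least 3 mesenchyme markers. With cells of mesenchyme, hepatoblast or endothelium markers left out, *Rhag* and *Kel* were also present in over 50% of the lowest bin, which made 5 members.

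The threshold matters for the last of these: with 1 read as the limit, *Slc4a1* was present in 26.8% of the lowest bin, while no cell there had more than 10.

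A share needs a yardstick, and cells that should lack the genes gave one. Among cells with 10 or fewer *Klf1* reads and at least 3 mesenchyme markers, *Ermap*, *Rhag*, *Ank1* and *Slc4a1* were each present in 1 cell (0.578%), *Kel* and *Epb42* in 0 and *Sptb* in 7 (4.05%), at a median of 1227000 reads per cell. *Epb41* was present in 95 of the same cells (54.9%, 47.2 to 62.5), so its share in the lowest bin does not set the erythroid cells apart. Its level there, 6.85 RPKM (RPM per 1000 exon bases), was also close to the 7.40 RPKM of the mesenchyme-marked cells. For the other early members the share in the lowest bin was far above that of mesenchyme-marked cells, and *Slc4a1* and *Epb42* lay at or near it.

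**Figure D1:**
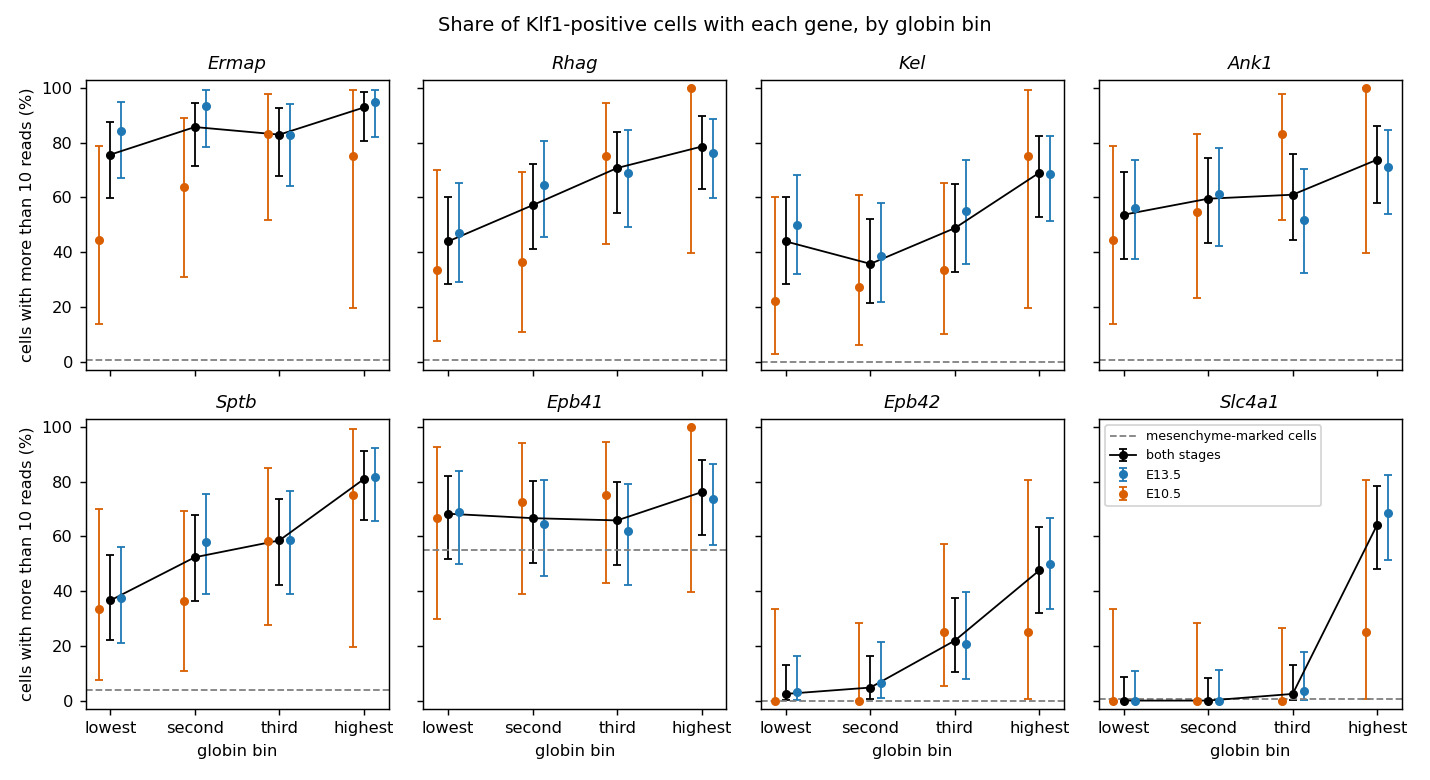
Share of *Klf1*-positive cells with more than 10 reads of each gene (y axis, percent) in the 4 globin bins (x axis), for both stages together (black, 41 or 42 cells a bin), E13.5 (blue) and E10.5 (orange). Bars are exact binomial 95% intervals and cover counting error only, and the dashed line is the share in mesenchyme-marked cells without *Klf1*. *Slc4a1* stays at 0 or 1 cell up to the third bin and reaches 27 of 42 in the highest, whereas *Ermap* starts at 31 of 41.

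In order of globin level, *Slc4a1* was the last of the 8 to appear. In the lowest bin single cells held 0 RPM at the lowest and at the median and 3.82 at the highest, in the second at most 1.12 and in the third at most 175.1. In the highest bin they ran from 0 through a median of 101.3 to 1573 RPM, and 27 of 42 cells were positive. Below the highest bin a single cell was positive, in the third, and it held 95.3% of the reads of that bin. Summed over cells, the level was 0.380 RPM in the lowest bin (18 reads, exact Poisson 95% interval 0.225 to 0.600) and 279 in the highest (274 to 284), a 736-fold difference. *Klf1* itself, which chose the cells, had 790 and 2396 RPM in the same bins. The positive cell with the least globin had 2349 RPM of globin, and the median over the 28 positive cells was 24860.

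*Epb42* came before it in rank of globin. Its protein binds the exchanger on the inner face of the membrane. Single cells reached at most 14.6 RPM in the lowest bin, 47.9 in the second, 590 in the third and 1827 in the highest, with medians of 0 in the first 3 and 5.87 RPM in the highest. It was present in 1, 2, 9 and 20 cells of the 4 bins. The positive cell with the least globin had 91.4 RPM of globin, and the median over 32 positive cells was 7483. In the third bin 8 cells had *Epb42* without *Slc4a1*, 0 had *Slc4a1* without *Epb42* and 1 had both. In the highest bin the balance was the other way, with 4 cells of the first kind, 11 of the second and 16 with both. Every cell with *Slc4a1* or *Epb42* also had *Ermap*.

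**Figure D2:**
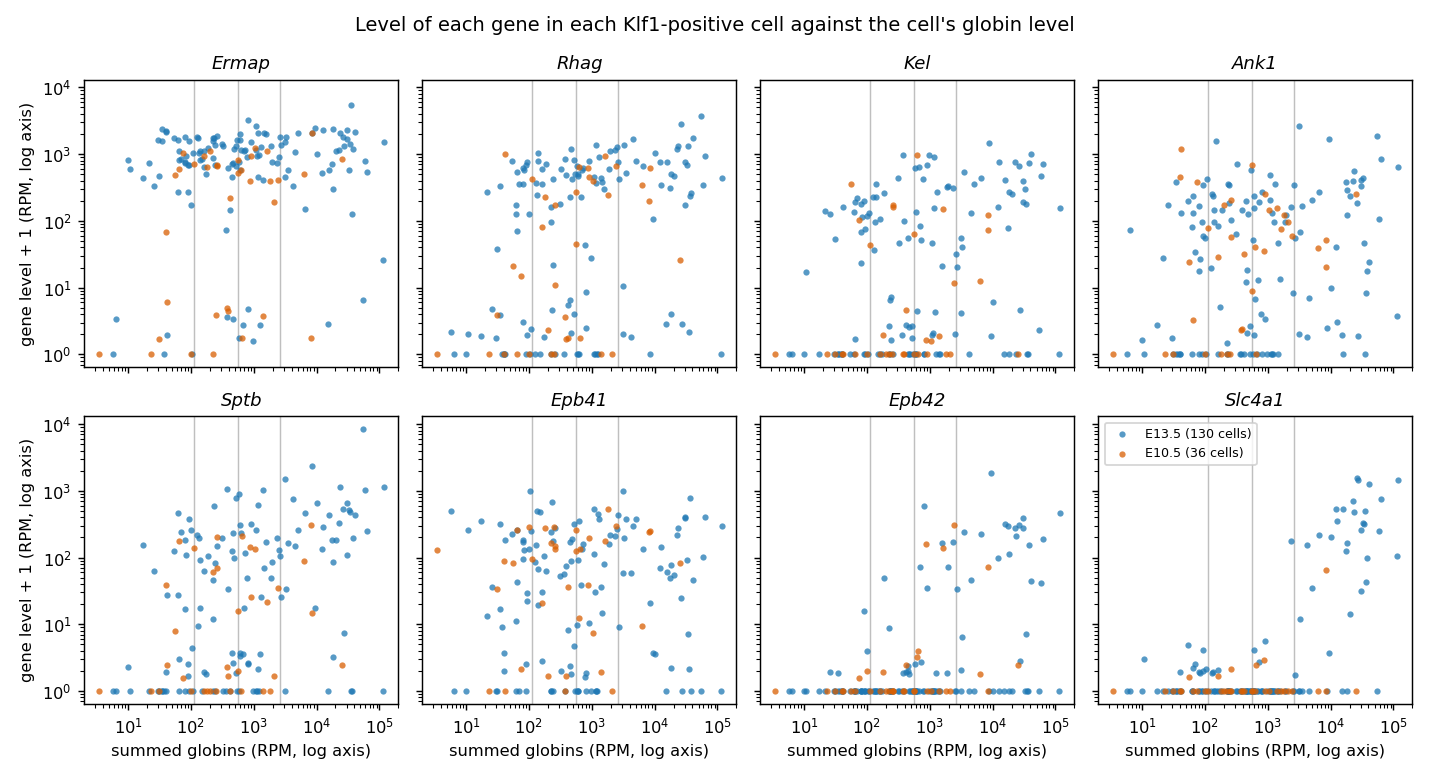
Level of each gene plus 1 (y axis, RPM, log axis) against summed globins (x axis, RPM, log axis) in each of the 36 E10.5 cells (orange) and 130 E13.5 cells (blue) with more than 10 *Klf1* reads. Grey lines part the globin bins, and points at the bottom are cells with 0 reads. *Ermap* is spread at about the same height over the whole axis, while cells with *Slc4a1* lie almost all in the right-hand part.

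The members with an early start differed in how much higher they were in the cells with most globin. From the lowest to the highest bin, *Sptb* went from 51.1 to 505.3 RPM (9.90-fold), *Kel* from 59.1 to 267 (4.51-fold) and *Rhag* from 165.4 to 635 (3.84-fold). The log2 ratio of *Sptb*, 3.31, was 2.88 to 4.77 with 1 pool left out. *Ank1* went from 120.5 to 266 RPM (2.20-fold), *Ermap* from 711.1 to 1236 (1.74-fold) and *Epb41* from 109.3 to 163.9 (log2 ratio 0.58). These sums hide a wide scatter between cells. In the highest bin, *Sptb* ran from 0 through a median of 188.8 to 8292 RPM, and 1 cell gave 27.1% of its reads. *Rhag* ran from 0 through 455 to 3672 RPM there, and *Ermap* from 0.755 through 1145 to 5393. The ranges of single cells overlapped between the lowest and the highest bin for all 8 genes.

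Read as a share of the level in the highest bin, over all pools together, the same genes fall into an order. The level of the lowest bin was 66.6% of that of the highest for *Epb41*, 57.5% for *Ermap*, 45.4% for *Ank1*, 26.1% for *Rhag* and 22.2% for *Kel*. It was 10.1% for *Sptb*, 0.444% for *Epb42* and 0.136% for *Slc4a1*. Both orders put *Epb42* and *Slc4a1* last. The number of members present per cell had a median of 4, 3, 4 and 6.5 in the 4 bins, and 12 of the 13 cells with all 8 were in the highest. The pools were unevenly spread over the bins. In pools 3, 4 and 5 the median was 4, 5, 6 and 7, and in pools 1 and 2 it was 1, 2, 3 and 3.

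A difference was counted where it was at least 2-fold and had the same sign in each pool with at least 5 cells in both bins, which were pools 2 to 5. The 2-fold size was asked of all cells together, and of each pool only the sign. By this rule 3 of 8 members were higher in the highest bin, *Ank1*, *Sptb* and *Slc4a1*, where 2.23% of 11814 genes were. Over the pools their log2 ratios ran from 0.45 to 1.46, from 0.57 to 9.12 and from 9.15 to 10.52 in that order. *Sptb* was lowest in pool 4, and *Ank1* was under 2-fold in pool 4 (0.52) and pool 5 (0.45). The median log2 ratio was 2.06 over the members and -0.50 over all genes. *Rhag* (log2 ratio -1.62) and *Kel* (-0.97) had the opposite sign in pool 2, where the highest bin held 5 cells, and log2 ratios of 1.99 to 3.96 and 1.61 to 3.11 in pools 3 to 5. *Epb42* had log2 ratios of 6.38 to 10.11 in pools 3 to 5 and at most 3 reads in both bins of pool 2. *Ermap* passed 0 in each pool (0.678 to 0.999) but stayed under 2-fold, and *Epb41* ran from -0.20 to 5.83. Without pool 2, 6 of 8 members were counted, *Rhag*, *Kel* and *Epb42* being added, and without pool 1 or pool 3 *Ank1* fell under 2-fold (0.91 and 0.92), which left 2. The same 2, *Sptb* and *Slc4a1*, were left without the cells with mesenchyme, hepatoblast or endothelium markers described further on. The share over all genes was not computed with pools or cells left out, so 2.23% is no yardstick for these last counts.

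The pools differed in how many cells of like globin level had the members. In the highest bin, *Rhag* was present in 29 of 30 cells of pools 3, 4 and 5 and in 4 of 12 cells of pools 1 and 2, and *Kel* in 27 and 2 of the same cells. *Epb41* was present in 28 of 30 and 4 of 12, and *Slc4a1* in 22 of 30 (73.3%, 54.1 to 87.7) and 5 of 12 (41.7%, 15.2 to 72.3). *Ermap* differed least, with 29 of 30 and 10 of 12. The median number of members present per cell was 7 in the first set of pools and 3 in the second, beside medians of 6037 and 4280 genes with a read. The part of the number of genes per cell in this difference was not tested. Summed levels did not follow the shares throughout: *Rhag* had 742 RPM in pools 3, 4 and 5 and 368 in pools 1 and 2, whereas *Ank1* had 203.4 and 422 and *Sptb* 342 and 913.

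**Figure D3:**
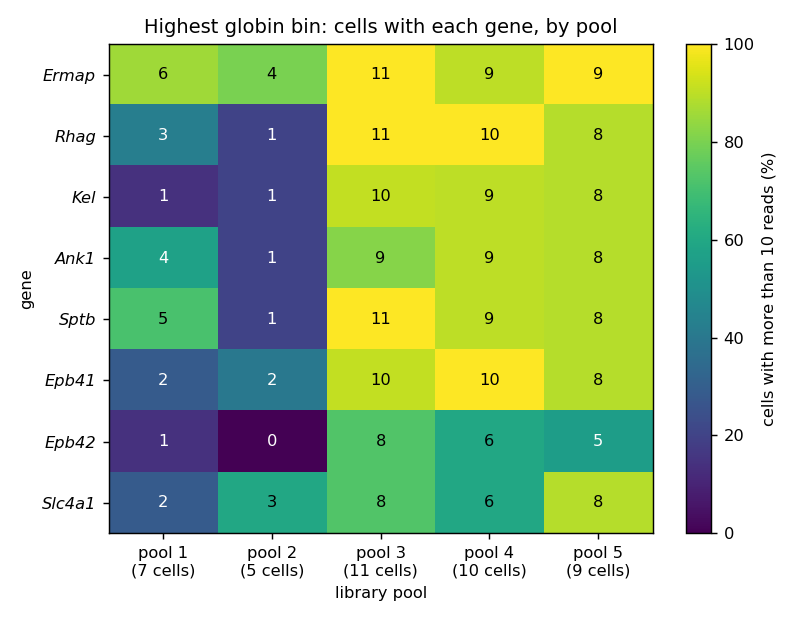
Cells of the highest globin bin with more than 10 reads of each gene, by library pool (x axis, with the number of cells) and gene (y axis). Colour is the percent of cells and the number in each field is the count of cells. All genes but *Ermap*, *Sptb* and *Ank1* were present in fewer than 50% of the 7 cells of pool 1, and pool 2 had *Rhag*, *Kel*, *Ank1* and *Sptb* in 1 of 5 cells each.

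Within pools 3, 4 and 5 the course over globin was plainer for most members. *Rhag* was present in 16 of 33, 18 of 26, 21 of 24 and 29 of 30 cells of the 4 bins. *Sptb* followed with 15, 18, 20 and 28 of the same cells, and *Kel* with 17, 14, 14 and 27. *Epb42* was present in 1, 1, 8 and 19 cells and *Slc4a1* in 0, 0, 1 and 22. *Ermap* (26, 24, 22 and 29 cells) and *Epb41* (26, 24, 21 and 28) were present in most cells from the start. *Ank1* was present in 19, 20, 17 and 26 cells, with a lower share in the third bin (70.8%) than in the second (76.9%). The choice of these pools was made after the data had been seen.

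Between genes, levels were compared per length of the gene's exons, as RPKM. In the lowest bin *Ermap* stood highest with 134.2 RPKM, then *Rhag* with 70.7 and *Kel* with 21.3. *Ank1* had 8.91, *Epb41* 6.85, *Sptb* 4.20, *Epb42* 0.109 and *Slc4a1* 0.0776 RPKM. In the highest bin *Rhag* (272 RPKM) and *Ermap* (233) led, followed by *Kel* (96.1), *Slc4a1* (57.1) and *Sptb* (41.6). *Epb42* reached 24.5 RPKM, *Ank1* 19.6 and *Epb41* 10.3. The membrane-spanning members thus stood above the members of the skeleton in that bin, per length. Reads of *Ank1* and *Epb41* are summed over several starts and isoforms, so their exon lengths (13527 and 15942 bases) may be longer than the transcripts of these cells, and without strand, reads of genes that overlap *Ank1*, *Epb41*, *Kel* and *Sptb* cannot always be told apart from theirs.

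E13.5 cells had more of most members than E10.5 cells. Over all *Klf1*-positive cells, 5 of 8 members were at least 2-fold higher at E13.5 with the same sign in pools 3, 4 and 5, the pools with at least 5 cells of each stage, where 6.86% of 11793 genes were. None was lower by that rule, as 5.95% of genes were. *Slc4a1* had 1.95 RPM at E10.5 (0 at the lowest and median cell, 63.7 at the highest) and 89.6 RPM at E13.5 (0, 0 and 1573), a log2 ratio of 5.52. It was present in 1 of 36 cells (2.78%) and in 27 of 130 (20.8%). The single E10.5 cell gave 90.8% of the E10.5 reads, and the log2 ratio was 10.21 without pool 4 and 4.70 without pool 3. *Sptb* had 52.3 RPM at E10.5 (cells from 0 through 1.45 to 310) and 244 at E13.5 (0, 48.3 and 8292). Its log2 ratio was 2.22, and 1.74 to 2.89 with 1 pool left out. The single cells of the stages overlapped for both genes.

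The membrane-spanning genes with an early start followed. *Kel* had 59.6 RPM at E10.5 (0, 0 and 982) and 170 at E13.5 (0, 33.1 and 1466), a log2 ratio of 1.51. *Ermap* went from 489 RPM (0, 447 and 2087) to 1064 (0, 965 and 5393), a log2 ratio of 1.12. *Rhag* went from 201.1 RPM (0, 22.4 and 1020) to 408 (0, 288 and 3672), a log2 ratio of 1.02. *Ank1* (0.23) and *Epb41* (0.28) did not pass the rule, being under 2-fold and with a sign that differed between pools. *Epb42* (1.501) was over 2-fold but did not pass, since its sign differed between pools. With 1 pool left out, the log2 ratio of *Epb42* ran from 0.998 to 8.31 and that of *Ank1* from -0.35 to 0.82. The median log2 ratio was 1.31 over the members and -0.09 over all genes.

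Markers of other cell types moved with stage. More than 10 reads on at least 3 mesenchyme markers were found in 5 E10.5 cells and 0 E13.5 cells, with a median of 1 member present in them. Of these cells 4 lay in the lowest globin bin and 1 in the second. The 7 markers summed to between 0 and 4125 RPM per cell at E10.5 and between 0 and 87.6 at E13.5. At least 3 of 8 megakaryocyte markers were found in 6 E10.5 cells and 1 E13.5 cell. Without the cells with mesenchyme, hepatoblast or endothelium markers, a choice made after the data had been seen, 3 of 8 members were counted (*Kel*, *Sptb* and *Slc4a1*), and the log2 ratios of *Ermap* and *Rhag* were 0.85 and 0.71. The same 3 were counted without the cells with leukocyte or megakaryocyte markers, where *Ermap* and *Rhag* had 0.998 and 0.94. The share over all genes was not computed for either choice. *Rhag* also fell under 2-fold without pool 3 (0.74), without pool 5 (0.87) and in bulk cells alone (0.99).

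The stages also differed in globin, and at like globin level fewer members passed the rule in the main setting. The same sign was asked of each bin in place of each pool, and pool was not held equal. Of the *Klf1*-positive cells of pool 1, 2 were from E10.5 and 30 from E13.5, and 0, 11 and 14 of them lay in the first 3 bins. With bins formed within each pool 6 members passed, and 4 did in pools 3, 4 and 5 alone. The log2 ratio was taken on RPM + 1 within the lowest, the second and the third bin, each with at least 9 cells of each stage, and averaged over them. *Sptb* kept its direction in all 3 (1.34, 1.37 and 1.57, mean 1.43), and so did *Ermap* (1.72, 0.95 and 0.93, mean 1.20). These 2 of 8 members were counted as higher at E13.5, where 8.28% of 11769 genes were, and 0 as lower, where 7.25% were. *Rhag* (mean 0.93) and *Kel* (0.87) were higher in each of the 3 bins with a mean under 2-fold. *Epb42* (0.55), *Epb41* (0.21) and *Ank1* (-0.30) had both signs. *Slc4a1* had -0.09 in the second bin and 2.85 in the third, where it was present in 0 of 12 E10.5 cells and 1 of 29 E13.5 cells. The median was 0.90 over the members and 0.00 over all genes.

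These counts hung on how cells were chosen and ranked. The share over all genes was computed for the main setting only, so the counts under other choices have none to be set against. Without the cells with mesenchyme, hepatoblast or endothelium markers only *Sptb* was counted, at 1.25, and *Ermap* fell to 0.85. Without pool 4, *Ermap* fell to 0.91, *Epb42* and *Slc4a1* passed, and *Ank1* was counted as lower (-1.04). Bins formed within each pool gave 6 members, as did bins by embryonic globins alone. *Sptb* was lost under 3 other choices. In cells with more than 10 *Gata1* reads in place of *Klf1* its mean was 0.70, and *Ermap*, *Rhag* and *Kel* were counted. In pools 3, 4 and 5 alone its mean was 0.99, and the same genes and *Slc4a1* were counted. In cells with at least 1 *Klf1* read its mean was 1.74 without the same sign in every bin, and *Ermap*, *Rhag*, *Kel* and *Ank1* were counted.

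**Figure D4:**
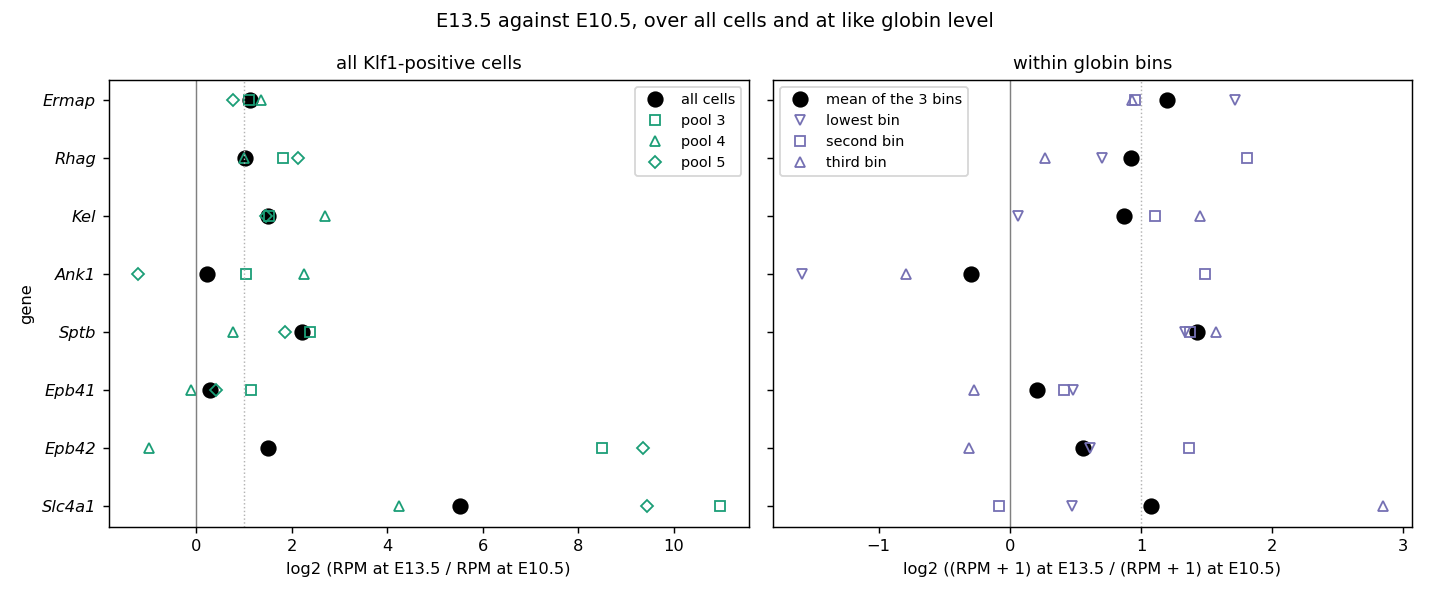
Log2 ratio of E13.5 to E10.5 (x axis) for each gene (y axis). Left, all *Klf1*-positive cells (black) and pools 3, 4 and 5 (green), in RPM. Right, within the 3 globin bins that hold at least 5 cells of each stage (purple) and their mean (black), in RPM + 1. The dotted line marks 2-fold. *Slc4a1* is at 5.52 on the left and at 1.08 on the right.

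Summed over cells, globin was of different kinds at the stages. Embryonic globins (*Hba-x*, *Hbb-y* and *Hbb-bh1*) summed to 1191 RPM at E10.5 and 105.8 at E13.5, and adult globins to 326 and 7118. The median cell differed from the sums at E10.5, with 143.7 RPM of embryonic and 170.1 of adult globins, against 2.57 and 411 at E13.5. The 4 E10.5 cells in the highest bin held mainly embryonic globin. They had 6388, 8298, 8403 and 25290 RPM of globin, of which 4491, 7878, 7583 and 24720 were embryonic. *Slc4a1* had 0, 0, 79 and 0 reads in them, in that order, and *Epb42* had 1, 0, 88 and 1. *Rhag* had 453, 266, 761 and 17 reads, and *Ank1* 50, 66, 24 and 170, so both were present in all 4. In the 14 E13.5 cells within the same span of globin, *Slc4a1* was present in 10 (cells from 0 through 182.9 to 696 RPM) and *Epb42* in 8. Summed levels of *Slc4a1* were 17.4 RPM in the 4 cells and 227 in the 14, and those of *Epb41* 152.9 and 70.6. With 4 cells, 3 of them from pool 4, these values are given with no comparison beyond them.

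The choice of globin mattered most for *Slc4a1*. With the bins formed by adult globins alone, the same 3 members were counted between the highest and the lowest bin, and with embryonic globins alone its log2 ratio turned to -0.79. The ratio of E13.5 to E10.5 within bins also hung on this choice. For *Slc4a1* the mean log2 ratio was 1.078 with all globins, -0.835 with adult and 5.496 with embryonic globins alone. For *Epb42* it was 0.554, -0.673 and 2.866 in the same order.

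Of the 5 *Klf1*-positive cells from the Lgr5-GFP+ sort, the E10.5 cell, with 3.39 RPM of globin, had 128.9 RPM of *Epb41* and 0 reads of the other 7 members. Of the 4 E13.5 cells, 3 lay in the highest globin bin, with 152.8, 164.9 and 251.9 RPM of *Slc4a1*. The fourth, at 396 RPM of globin, had 0 reads of *Slc4a1* and *Epb42* and 545 of *Ermap*.

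Other genes of the same structures gave a mixed picture. Of 8 further genes of the skeleton, 3 were at least 2-fold higher in the highest bin, among them *Add2*, an adducin (94.3 to 251 RPM), and *Tmod1*, which caps actin filaments (18.9 to 96.1 RPM). *Dmtn*, which bundles actin, went from 4.79 to 226 RPM without passing the rule on pools. *Add1* (log2 ratio 0.03), *Tpm1* (-0.52) and *Tpm3* (-0.95) were not higher. The median over the 8 was 1.72.

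Of 16 further membrane-spanning genes, 13 could be compared and 4 were higher in the highest bin, among them *Bsg*, *Slc29a1* and *Aqp1* with log2 ratios of 1.05 to 1.20. *Rhd*, the partner of *Rhag*, went from 70.1 to 845 RPM without passing the rule. *Xk*, the partner of *Kel*, stayed between 71.01 and 124.2 RPM. Between stages, 5 of the 13 and 4 of the 8 skeleton genes were higher at E13.5, and within globin bins 5 of 13 and 0 of 8.

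Relatives of the members that serve other tissues mostly stood low. Of 17 such genes, 12 could be compared, 0 were higher in the highest bin and 3 were lower (*Sptbn1*, *Sptan1* and *Epb41l5*). The share of all genes that were lower was not computed, and the median log2 ratio over all genes was -0.50. *Sptbn1*, a beta spectrin of most cells, fell from 90.4 to 39.1 RPM, while *Sptb* went from 51.1 to 505.3 RPM. In the lowest bin *Sptbn1* thus stood above *Sptb* in RPM. That bin also held 4 of the 5 *Klf1*-positive cells with mesenchyme markers. *Sptbn1* had 9.91 RPKM in cells with 10 or fewer *Klf1* reads and 2.96 in *Klf1*-positive cells. The part of the mesenchyme-marked cells in these values was not tested. *Slc4a2*, an exchanger of the same family as *Slc4a1*, was present in at most 4.88% of cells of any bin.

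Across the *Klf1*-positive cells of both stages, the members went with globin to different extents. Spearman's rho with the globin level was 0.46 for *Epb42*, 0.44 for *Slc4a1*, 0.41 for *Sptb*, 0.38 for *Rhag* and 0.30 for *Kel*. It was 0.23 for *Ank1*, 0.20 for *Ermap* and 0.09 for *Epb41*. The closest pair of members were *Rhag* and *Kel* (0.49). Of 3508 candidate genes (3 or more reads in 50% of the cells or more), those most like the mean rank of the 8 members included *Pklr* (0.67), *Ubac1* (0.65), *Gfi1b* (0.64), *Fth1* (0.63), *Rhd* (0.60), *Car2* (0.59), *Cd24a* (0.58) and *Slc25a38* (0.57). For single members, the 2 nearest genes were *Cd24a* and *Hemgn* for *Slc4a1* (0.55 and 0.53) and *Ubac1* and *Gfi1b* for *Kel* (0.54 and 0.54). These are descriptions over cells that share libraries, depth and stage, and rho with the total reads of a cell was -0.26 for *Epb41* and between -0.09 and -0.01 for the other 7 members.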

How the data were processed

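Per the labels and the methods of the study, the authors aligned 50-base single-end reads to GRCm38 with STAR 2.6.0c, counted uniquely aligned reads per Ensembl 93 gene with Subread 1.6.2 and deposited raw counts of the cells that passed their filters. The near-identical adult globin copies therefore lose reads. The deposited normalised table was not used. All 653 columns were used, 166 cells were *Klf1*-positive and 173 of the others mesenchyme-marked, 0 pairs of cells had identical counts, and reads per cell ran from 463347 to 2279700 (median 1192740). Symbols and exon lengths were taken from GENCODE M21 (54042 of 54195 genes named).

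Levels are reads summed over cells, as RPM. Genes with a mean under 1 RPM in the cells compared were left out. A group with 0 reads was set at 3 reads in a ratio, and no ratio was given where both groups had 3 or fewer. Intervals are 95% exact and cover counting error only, since amplified reads are not independent molecules. Each stage was treated as 1 sample, so no p-value was computed. The steps were tested on simulated data. The members and lists were chosen with earlier results of these data known. The genes named are every member, the listed relatives with the highest levels, and the genes with the highest Spearman rho, some of which are not reported here. Genes named beyond that rule were chosen after their values were seen. Python 3.11.15, numpy 2.4.6, pandas 2.3.3, scipy 1.17.1 and matplotlib 3.10.9 were used.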

Additional observations from a re-analysis of the deposited data

Results flagged for a closer look

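Some cells that were left out, with 10 or fewer *Klf1* reads, had more than 10 reads of a member. *Sptb* was present in 28 of the 487 such cells (5.75%, exact 95% interval 3.85 to 8.20), *Ermap* in 14 (2.88%), *Ank1* in 13 (2.67%) and *Slc4a1* in 4 (0.821%). They are listed because each number is above the 3 cells that a count of 0 would allow, which does not set them apart from background. In the mesenchyme-marked cells among them *Sptb* was present in 4.05%, and *Ermap*, *Ank1* and *Slc4a1* in 0.578% each. *Epb41* is not counted here, since it was present in 233 of them.

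The 28 cells with *Sptb* came mostly from E10.5 (22 cells). Of these 28, 14 had more than 10 reads of *Gata1*, which encodes an erythroid and megakaryocyte transcription factor, and 13 had at least 3 megakaryocyte markers. In the 23 cells with *Gata1* but not *Klf1*, *Sptb* was present in 14 (60.9%) at 155.7 RPM, *Ermap*, *Epb42* and *Slc4a1* in 1 each, and *Rhag*, *Kel* and *Ank1* in 0, which allows up to 14.8%. Of these 23 cells, 15 had at least 3 megakaryocyte markers.

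The 14 cells with *Ermap* had a median of 813 reads of it, 13 were from E13.5 and 11 lay in pool 2. Of these 14, 9 had 1 to 10 *Klf1* reads and 5 had at least 3 erythroid markers. The 13 cells with *Ank1* were spread over the 5 pools with a median of 40 reads. The 4 cells with *Slc4a1* were from E13.5, and 3 had another member besides *Epb41*. What sets these cells apart was not tested.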

How the results depend on the processing

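Between the highest and the lowest globin bin, 3 members were counted, and 6 with at least 1 *Klf1* read, 5 with more than 10 *Gata1* reads in place of *Klf1*, 5 in pools 3, 4 and 5 only, and 2 to 6 with 1 pool left out. For these and the other counts in this section, the share over all genes was computed for the main setting only. With embryonic globins only, *Slc4a1* turned to a log2 ratio of -0.79. The count over 50% of the lowest bin was 3, and 1 with at least 1 *Klf1* read, 6 with embryonic globins only, 5 with a threshold of at least 1 read, 1 with more than 50 reads, 5 without cells with mesenchyme, hepatoblast or endothelium markers, and 3 to 4 with 1 pool left out.

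Higher at E13.5 were 5 members, and 3 without cells with leukocyte or megakaryocyte markers, 3 without those with mesenchyme, hepatoblast or endothelium markers, and 4 to 6 with 1 pool left out (0 lower each time). Within globin bins 2 were higher, and 4 with at least 1 *Klf1* read, 4 with each cell thinned to 100000 reads (more than 1 read as present), 6 with embryonic globins only, 6 with bins formed within each pool, 4 in pools 3, 4 and 5 only, 1 without cells with mesenchyme, hepatoblast or endothelium markers, and 2 to 3 with 1 pool left out, with 0 to 1 lower.

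The *Klf1*-positive share of cells was 8.70% at E10.5 and 54.4% at E13.5. It was 44.4% and 79.5% with at least 1 *Klf1* read, 47.3% at E13.5 by *Gata1*, 17.2% and 79.2% in bulk cells, 0.474% and 5.0% in the Lgr5-GFP+ sort, where no other value could be had, 12.6% and 63.4% in pools 3, 4 and 5, 16.04% and 64.5% without cells with mesenchyme, hepatoblast or endothelium markers, and 6.04% to 10.4% and 50.96% to 63.5% with 1 pool left out. The settings of bins within pools, of pools 3, 4 and 5, of a sign rule without empty pools and of mesenchyme, hepatoblast or endothelium markers were added after the data had been seen. Adult globins only, 3 bins in place of 4, globin reads left out of the total, the mean over cells, no filter on low values, bulk cells only and more than 50 *Klf1* reads kept each count of members within 1.5 times. Over members and alternatives, 97.1% of log2 ratios between stages, 90.8% within bins and 96.4% between bins kept their sign. No paired analysis was possible because the labels tie no cell to an animal or a sort, and the ratios within pools stand in the report. The number of cells limits the shares: in the 9 E10.5 cells of the lowest bin, 0 cells with *Slc4a1* allows up to 33.6%. The cause of these changes was not tested.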
